A study of Bos taurus with 7 samples.

Results

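The ketone body genes BDH1, BDH2, ACAT1, OXCT1, ACADS, ECHS1 and HADH were measured in the rumen epithelium of Holstein calves. They were chosen by name, each matched to the probe whose gene name in the scanner files equalled the symbol, and all 7 were found, among 14964 distinct gene names on the array. Every one had 1 probe. Total RNA of 7 calves was hybridised to single-colour Agilent arrays, 1 array per calf. The calves of the HAY group (calves 9, 10 and 13) were given forage, and those of the CON group (calves 8, 11, 12 and 14) were not. The design text names 3 weeks after weaning, without saying whether the groups were formed or the tissue was taken then. The age, sex and genotype of the calves are not given in the sources used here. The question here was whether genes of ketone body synthesis and use differed between the epithelia of the HAY and CON calves.

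The rumen epithelium is a stratified squamous lining through which the volatile fatty acids of fermentation are absorbed, and in ruminants it is known as a site where butyrate is turned into 3-hydroxybutyrate. Butyrate is activated to butyryl-CoA and oxidised in mitochondria by ACADS, ECHS1 and HADH to acetoacetyl-CoA. Acetoacetate is then released, and BDH1 reduces it to 3-hydroxybutyrate. Tissues that burn ketone bodies run BDH1 in the other direction, transfer CoA from succinyl-CoA to acetoacetate with OXCT1, and split the product with ACAT1, a thiolase that works in either direction.

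On each array the log2 signal of a probe was expressed relative to the 75th percentile of that array, so that a value of 0 equals the percentile. The share of spots well above background was 81.5 to 84.6%, and all 7 ketone body genes were so on all 7 arrays, with none saturated. Of 12570 genes tested with limma, 1 (0.00796%) passed a Benjamini-Hochberg adjusted p of 0.05. At an unadjusted p under 0.05 stood 1755 genes (14.0%), of which 854 (6.79%) were higher and 901 (7.17%) lower in HAY. The 10 keratinocyte markers, among them KRT5, KRT14 and TP63, were well above background on every array, as were all 10 fibroblast markers and 8 of 9 tested smooth muscle markers. All arrays shared 1 slide, with HAY in its row 1 and CON in its row 2, so slide row and feeding cannot be told apart.

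The probes are 60 bases long and were designed on UMD_3.1. Per the deposited files, the probe of BDH1 lies on chromosome 1 from 72573002 to 72573061, that of OXCT1 on chromosome 20 from 32848664 to 32848723, that of ACADS on chromosome 17 from 65237140 to 65237199, that of ECHS1 on chromosome 26 from 25862182 to 25862241, and that of HADH on chromosome 6 from 18459487 to 18459546. BDH1 and HADH are read from the minus strand. Whether they lie in coding exons or UTRs was not analysed here. The remaining pair of probes is printed because the files say less about what they measure. The BDH2 probe, on chromosome 6 from 23077244 to 23077303, carries the accession of an expressed sequence tag from fat and not that of a RefSeq transcript. The ACAT1 probe carries a RefSeq accession but no position. Both are given 5′ to 3′ as deposited.
BDH2: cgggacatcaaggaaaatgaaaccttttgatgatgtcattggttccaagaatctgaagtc
ACAT1: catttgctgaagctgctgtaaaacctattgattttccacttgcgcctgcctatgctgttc

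Most of these genes gave some of the brightest signals on the arrays. Ranked among 15008 probes, HADH lay between the 98.9th and 99.5th percentile over the 7 calves, BDH1 between the 98.6th and 99.4th, and ACADS between the 97.6th and 98.9th. ECHS1 lay between the 94.1st and 96.6th percentile and ACAT1 between the 90.7th and 95.5th. BDH2 lay between the 41.5th and 51.7th. OXCT1 held rank 7511 to 10162 from the brightest. HADH gave a processed signal of 110781 to 223027 intensity units and OXCT1 one of 55.6 to 215. Probes bind with different strength, so these ranks order the signals and not the amounts of transcript, and no order among the genes is drawn from them.

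Of the genes that turn butyryl-CoA into acetoacetyl-CoA, ACADS had higher values in HAY, while ECHS1 and HADH overlapped between the groups. ACADS is the short-chain acyl-CoA dehydrogenase, which takes the first oxidation step. Its log2 signal was 5.62, 5.91 and 5.66 in HAY calves 9, 10 and 13, against 5.34, 4.99, 5.58 and 4.70 in CON calves 8, 11, 12 and 14. All 3 HAY calves lay above all 4 CON calves, with CON calf 12 just under HAY calf 9. The level in HAY was 1.49-fold that in CON (log2 difference 0.58, SE 0.23, lower 95% bound 0.05, limma adjusted p = 0.326).

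ECHS1, the short-chain enoyl-CoA hydratase of the next step, had log2 signals of 3.86, 3.94 and 3.55 in HAY calves 9, 10 and 13, against 3.25, 3.77, 4.08 and 3.26 in CON calves 8, 11, 12 and 14. The highest and the lowest of the 7 values were both CON. The log2 difference was 0.19 (SE 0.24, 95% interval -0.37 to 0.75, limma adjusted p = 0.767). HADH, the 3-hydroxyacyl-CoA dehydrogenase that forms acetoacetyl-CoA, had log2 signals of 6.89, 6.82 and 6.28 in HAY calves 9, 10 and 13, against 6.60, 6.71, 6.90 and 5.82 in CON calves 8, 11, 12 and 14. Its groups overlapped as well, with CON calf 14 well under the other 6. The log2 difference was 0.15 (SE 0.29, 95% interval -0.51 to 0.82, limma adjusted p = 0.850), and it was -0.075 without CON calf 14. For neither gene do these intervals leave out a change of the size measured for ACADS.

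BDH1, the mitochondrial 3-hydroxybutyrate dehydrogenase that interconverts acetoacetate and 3-hydroxybutyrate, had log2 signals of 6.70, 6.58 and 6.07 in HAY calves 9, 10 and 13, against 5.74, 6.07, 6.08 and 5.47 in CON calves 8, 11, 12 and 14. HAY calves 9 and 10 stood above every CON calf, and HAY calf 13 stood level with CON calves 11 and 12. The level in HAY was 1.53-fold that in CON (log2 difference 0.61, SE 0.22, 95% interval 0.09 to 1.13, limma adjusted p = 0.304).

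BDH2 encodes a cytosolic short-chain dehydrogenase that carries the name of a 3-hydroxybutyrate dehydrogenase. Its log2 signal was -2.94, -3.22 and -3.10 in HAY calves 9, 10 and 13, against -3.79, -3.24, -3.72 and -4.16 in CON calves 8, 11, 12 and 14. The groups did not overlap, though HAY calf 10 and CON calf 11 had nearly equal values. The level in HAY was 1.56-fold that in CON (log2 difference 0.64, SE 0.22, 95% interval 0.12 to 1.15, limma adjusted p = 0.296).

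OXCT1, the mitochondrial CoA transferase that commits acetoacetate to oxidation, was the only 1 of the 7 with a lower mean in HAY. Its log2 signal was -4.17, -4.63 and -5.30 in HAY calves 9, 10 and 13, against -3.10, -3.85, -4.05 and -3.85 in CON calves 8, 11, 12 and 14. All 3 HAY calves lay below all 4 CON calves, with HAY calf 9 and CON calf 12 the nearest. The level in CON was 1.98-fold that in HAY (log2 difference, HAY minus CON, -0.99, SE 0.32, 95% interval -1.73 to -0.24, limma adjusted p = 0.279). The difference was -0.71 under normexp, a background correction that adds an offset and so compresses dim signals. Under the same correction the difference of BDH2, also a dim signal, was 0.45. Without HAY calf 13 the unadjusted limma p of OXCT1 no longer lay under 0.05.

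ACAT1, the mitochondrial acetoacetyl-CoA thiolase, had log2 signals of 3.66, 3.73 and 3.19 in HAY calves 9, 10 and 13, against 2.67, 2.73, 3.56 and 2.41 in CON calves 8, 11, 12 and 14. CON calf 12 reached the HAY range, and the other CON calves lay below every HAY calf. The level in HAY was 1.61-fold that in CON (log2 difference 0.68, SE 0.29, 95% interval 0.01 to 1.36, limma adjusted p = 0.353).

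**Figure D1:**
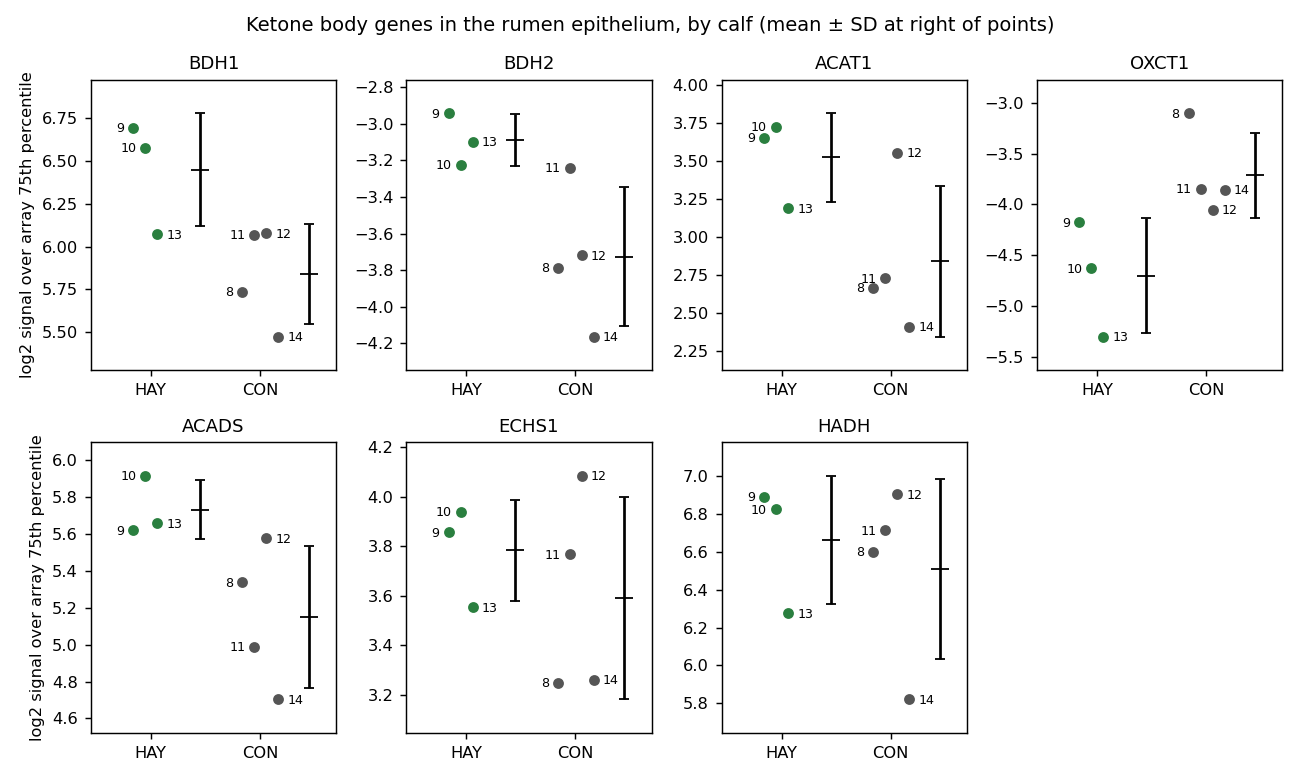
Log2 signal relative to the 75th percentile of the array (vertical axis) for each ketone body gene, HAY calves in green and CON calves in grey, numbered by calf, with the group mean and SD beside the points. OXCT1 lies lower in all 3 HAY calves, ACADS and BDH2 lie higher in all 3, and ECHS1 and HADH overlap.

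No ketone body gene passed the adjusted threshold over all genes. At an unadjusted limma p under 0.05 stood 5 of 7, with BDH1, BDH2, ACAT1 and ACADS higher and OXCT1 lower in HAY, where the background over all genes was 14.0%. The groups did not overlap for 3 of 7 (ACADS, BDH2 and OXCT1), where the background was 11.8%, made up of 6.55% with HAY higher and 5.30% with HAY lower. The median log2 difference of the 7 genes was 0.58, against 0.03 over all genes tested. The 7 genes were chosen with earlier results of the same calves known. Their counts and median therefore describe them, and no enrichment over the background is drawn from them. The count of 5 was lower when calves were left out: it was 1 without HAY calf 9, 2 without HAY calf 10, 3 without HAY calf 13, 3 without CON calf 8, 3 without CON calf 11 and 2 without CON calf 14. The log2 differences without HAY calf 9 were 0.63 for ACADS, 0.62 for ACAT1, 0.57 for BDH2, 0.49 for BDH1 and -1.25 for OXCT1. With quantile normalization the count was 2, OXCT1 and BDH2.

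**Figure D2:**
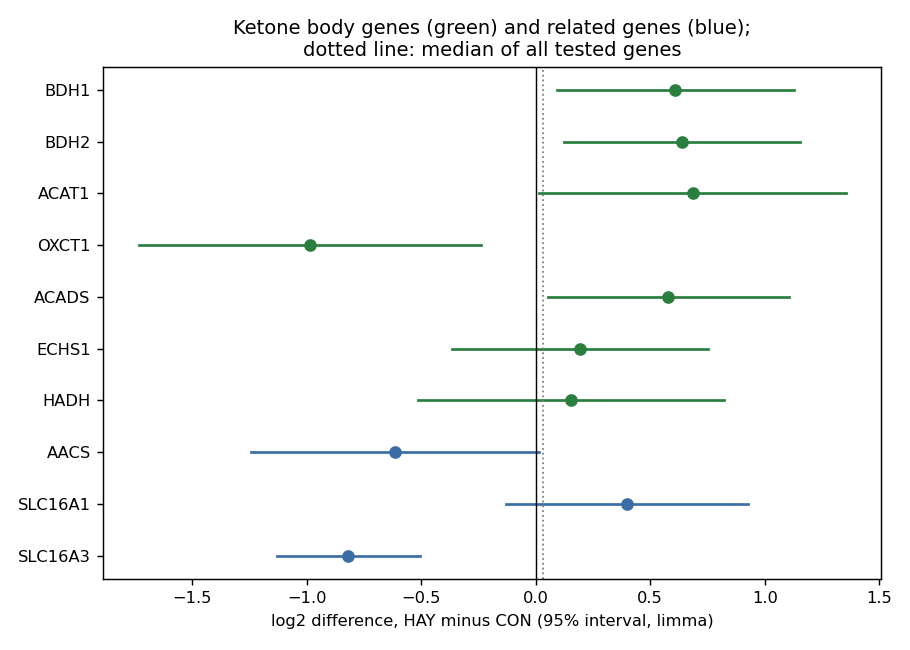
Log2 difference, HAY minus CON, with its 95% interval from limma (horizontal axis), for the ketone body genes in green and related genes in blue. The interval of OXCT1 lies wholly below 0 and those of BDH1, BDH2, ACAT1 and ACADS wholly above it, without adjustment for the number of genes tested.

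Single calves held the extreme values of several genes. CON calf 12 held the highest CON value of 5 of the 7 genes, and CON calf 14 the lowest of the 7 calves for 5 of them. The lowest OXCT1 value was in HAY calf 13 and the lowest ECHS1 value in CON calf 8. Ratios within an array remove what scales all of its signals alike. The log2 ratio of BDH1 to HADH was -0.19, -0.25 and -0.20 in HAY calves 9, 10 and 13, against -0.86, -0.64, -0.82 and -0.35 in CON calves 8, 11, 12 and 14. These groups did not overlap, and the mean ratio was -0.21 ± 0.029 in HAY and -0.67 ± 0.23 in CON (SD, n = 3 and 4). BDH1 was thus 1.37-fold higher relative to HADH in HAY. For ACADS over HADH the log2 difference was a similar 0.43, against 0.46 for BDH1 over HADH, but its groups overlapped. The log2 ratio of ACADS to BDH1 was -0.72 ± 0.33 in HAY and -0.69 ± 0.31 in CON (SD, n = 3 and 4). That difference lay within the spread of the calves. The log2 ratio of BDH2 to BDH1 was -9.54 ± 0.33 in HAY and -9.57 ± 0.21 in CON (SD, n = 3 and 4) and overlapped too.

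Of the 7 genes only OXCT1 belongs to ketone use alone. The others were set against it as log2 ratios within each array. BDH1 and ACAT1 work in either direction, and ACADS, ECHS1 and HADH also serve fatty acid oxidation at large, so these ratios do not separate making from using steps. The size of such a ratio depends on the probes, and only its difference between calves can be read. For BDH1 over OXCT1 it was 10.87, 11.20 and 11.37 in HAY calves 9, 10 and 13, against 8.84, 9.91, 10.13 and 9.33 in CON calves 8, 11, 12 and 14. The groups did not overlap. HAY calves averaged 11.15 ± 0.26 and CON calves 9.55 ± 0.58 (SD, n = 3 and 4), which makes the ratio 3.02-fold higher in HAY (log2 difference 1.60). Every ratio over OXCT1 contains the OXCT1 difference with its sign turned, so these ratios are not separate results.

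For the mean of ACADS, ECHS1, HADH and BDH1 over OXCT1 the log2 ratio was 9.94, 10.44 and 10.69 in HAY calves 9, 10 and 13, against 8.33, 9.23, 9.71 and 8.67 in CON calves 8, 11, 12 and 14. Here too the groups stood apart, with HAY calf 9 nearest to CON calf 12. The log2 difference was 1.37, and it contains the OXCT1 difference of -0.99 with its sign turned. ACAT1 over OXCT1 had a log2 ratio of 8.23 ± 0.35 in HAY and 6.55 ± 0.78 in CON (SD, n = 3 and 4). No test was made of these ratios, since the genes were chosen with earlier results of the same calves known.

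**Figure D3:**
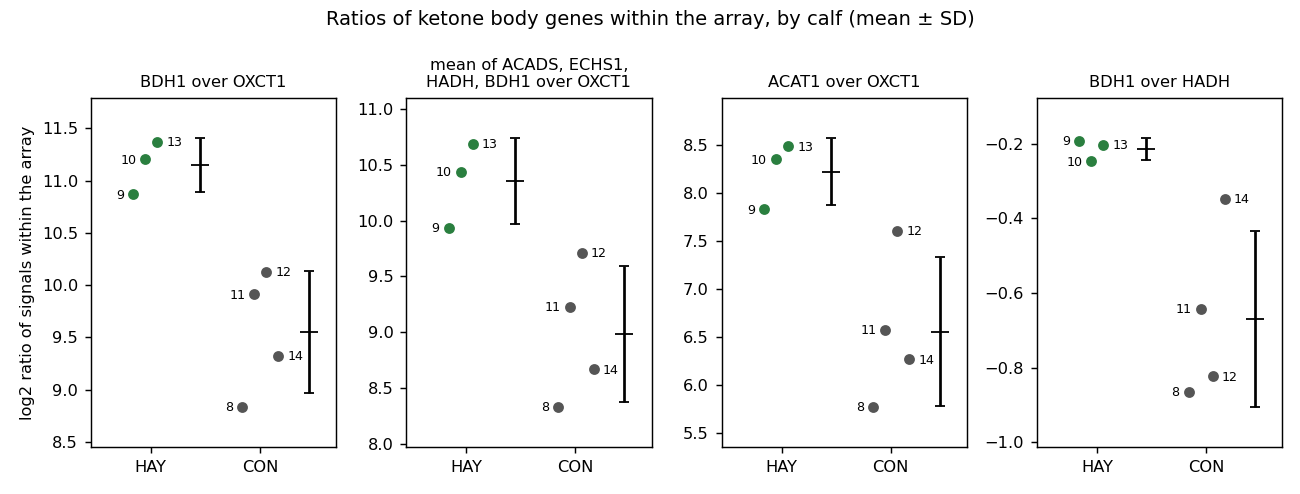
Log2 ratio of signals within the array (vertical axis) for BDH1 over OXCT1, for the mean of ACADS, ECHS1, HADH and BDH1 over OXCT1, for ACAT1 over OXCT1 and for BDH1 over HADH, by calf, with the group mean and SD. In each panel the 3 HAY calves (green) lie above the 4 CON calves (grey); only differences between calves within a panel can be read.

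The related genes described here were 59 in 8 lists. Of these, 51 were tested, 37 with higher and 14 with lower means in HAY, where 54.5% of all genes had higher means, and the median log2 difference was 0.13. None passed the adjusted threshold, and 2 stood at an unadjusted limma p under 0.05, SLC16A3 and SLC16A6, where the background over all genes was 14.0%. The cytosolic genes that use acetoacetate and acetoacetyl-CoA for sterols and fat had no member at that level. AACS, which activates acetoacetate in the cytosol, had a log2 difference of -0.62 (SE 0.27, limma adjusted p = 0.363), ACAT2 one of -0.075 and HMGCS1 one of -0.047.

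In the transport list 2 of 5 tested genes stood at an unadjusted limma p under 0.05, both lower in HAY, where 7.17% of all genes were so. SLC16A3, the monocarboxylate transporter MCT4, had a log2 signal of -4.03, -4.04 and -3.99 in HAY calves 9, 10 and 13, against -3.34, -3.18, -3.28 and -2.99 in CON calves 8, 11, 12 and 14. All HAY values lay below all CON values, and the level in CON was 1.76-fold that in HAY (log2 difference, HAY minus CON, -0.82, SE 0.13, limma adjusted p = 0.164). With normexp the difference was -0.61. SLC16A6, a further monocarboxylate transporter that carries ketone bodies in zebrafish liver, had a difference of -0.61 (SE 0.24, limma adjusted p = 0.324) without overlap, and one of -0.38 with normexp. It stood at an unadjusted limma p under 0.05 in 10 of 17 other settings of the processing and calves, and SLC16A3 in 17 of 17. These are not 17 separate checks, since 2 other filters and the mean of probes left the differences of both genes as they were. SLC16A1, the transporter MCT1, had a difference of 0.40 (limma adjusted p = 0.470) and BSG, basigin, the chaperone of MCT1 and MCT4, one of 0.27 (limma adjusted p = 0.576).

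In the other 6 lists no gene stood at an unadjusted limma p under 0.05, and their counts of higher means are to be read against the 54.5% over all genes. Among activating enzymes 3 of 6 tested had higher means in HAY. ACSS1, the mitochondrial acetyl-CoA synthetase, had a log2 difference of -0.78 and ACSM1, a medium-chain synthetase that accepts butyrate, one of -0.38, while ACSS2 had one of 0.18 and ACSF2 one of 0.17. Of the other acyl-CoA dehydrogenases and the electron transfer proteins that serve them, 8 of 9 had higher means, with a median of 0.21. ETFDH, which passes their electrons to ubiquinone, had a difference of 0.70 (SE 0.35), ETFA one of 0.37, ACAD8 one of 0.49 and IVD one of 0.21.

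Of 13 tested genes of long-chain and other fatty acid oxidation, 12 had higher means in HAY, against 54.5% of all genes, with a median of 0.27 and values between -0.021 and 0.37. SLC25A20, the carnitine-acylcarnitine carrier, had a difference of 0.37, CPT1B one of 0.36, ACAA1 one of 0.32 and ECH1 one of 0.32. Of the genes that make succinyl-CoA or convert between it and succinate, 4 of 5 had higher means, DLST at 0.28, SUCLG1 at 0.21, OGDH at 0.19 and SUCLG2 at 0.10. Regulators had 5 of 7 higher, with RXRA at 0.23, INSR at 0.18, FOXA2 at 0.13 and SIRT5 at 0.09. The acid receptors had 3 of 3 higher, FFAR3 at 0.34, HCAR1 at 0.20 and FFAR2 at 0.06.

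**Figure D4:**
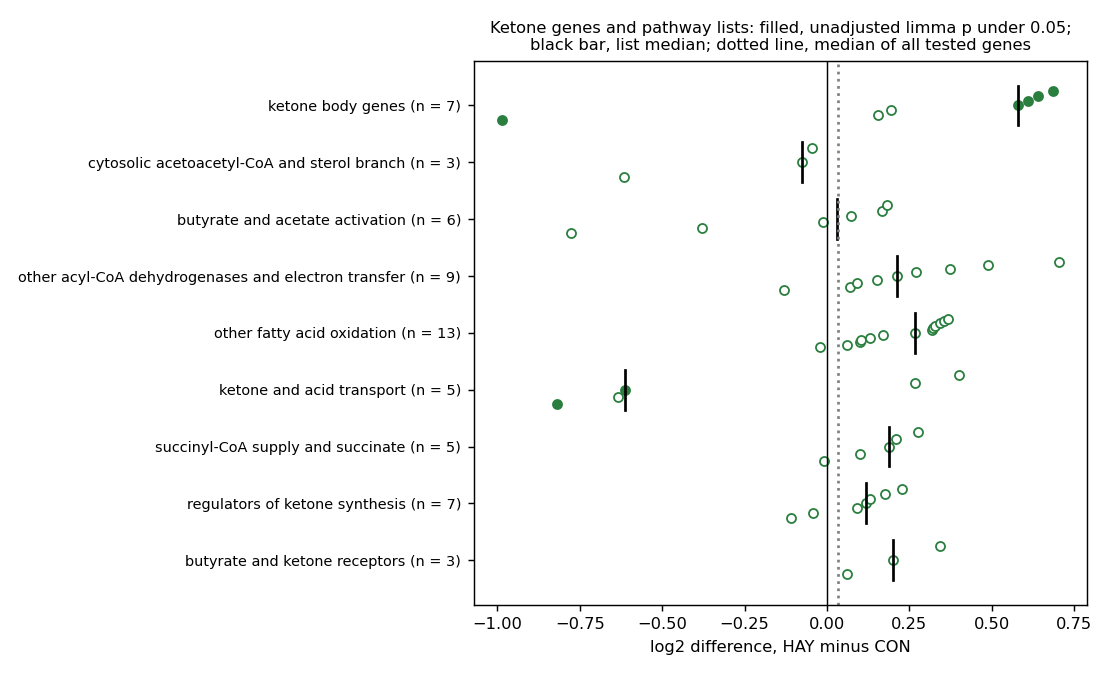
Log2 difference, HAY minus CON (horizontal axis), of each tested gene by list, filled where the unadjusted limma p was under 0.05, with the list median as a black bar and the median of all genes as a dotted line. The ketone body genes have 5 of 7 filled points and the transport list 2 of 5, and no other list has any.

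Markers of the tissue under the epithelium, like OXCT1, had lower means in HAY. All 10 fibroblast and all 9 tested smooth muscle markers had lower means in HAY, where 54.5% of all genes had higher means. At an unadjusted limma p under 0.05 stood 6 and 7 of them, where 7.17% of all genes were so and lower in HAY. None of these markers passed the adjusted threshold. Their summed signal, in multiples of the 75th percentile of the array, was 110, 48.7 and 31.7 in HAY calves 9, 10 and 13, against 323, 144, 116 and 85.9 in CON calves 8, 11, 12 and 14. The groups overlapped, HAY calf 9 lying above CON calf 14. The OXCT1 signal was nevertheless lower in HAY calf 9 (-4.17) than in CON calf 14 (-3.85). OXCT1 had its highest signal in CON calf 8 and its lowest in HAY calf 13, the calves with the highest and the lowest sum. Leaving out these 2 calves was chosen after seeing the data. It had to shrink the OXCT1 difference, since they hold its extreme values, so it tells nothing of the stromal part. Without them the log2 difference of OXCT1 was -0.48. The count of ketone body genes at an unadjusted limma p under 0.05 was then 1, BDH1. For the ratio of BDH1 to OXCT1 the log2 difference was then 1.25, and it contains the OXCT1 difference with its sign turned. In bulk tissue, fewer cells of a type and less RNA per cell cannot be told apart, and the part of the stromal signal in the OXCT1 difference was not tested.

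CON calf 14 had the lowest stromal sum of the CON calves and also the lowest BDH1, BDH2, ACAT1 and ACADS signals of the 7 calves. The 10 keratinocyte markers summed to 330 to 358 in HAY and 283 to 340 in CON. Of these, 7 had higher means in HAY, where 54.5% of all genes did, and none stood at an unadjusted limma p under 0.05. Their log2 differences ran from -0.24 for KRT15 to 0.58 for KRT14, with a median of 0.09. The 10 leukocyte markers summed to 8.28 to 8.80 in HAY and 11.3 to 18.8 in CON, without overlap. A sum is carried by the brighter markers. The mean log2 deviation from each marker's mean over the 7 calves overlapped, at -0.69 to -0.27 in HAY and -0.32 to 0.64 in CON. CD3E and CD79A were not well above background on every array. The 8 endothelial markers summed to 1.19 to 3.91 in HAY and 2.86 to 4.92 in CON. Lower means in HAY were found for 8 leukocyte markers, and higher ones for 2, CD68 and CD79A. At an unadjusted limma p under 0.05 stood 6 leukocyte and 3 endothelial markers, all lower in HAY, where 7.17% of all genes were so. None of these markers passed the adjusted threshold. Their part in the differences was not tested either.

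**Figure D5:**
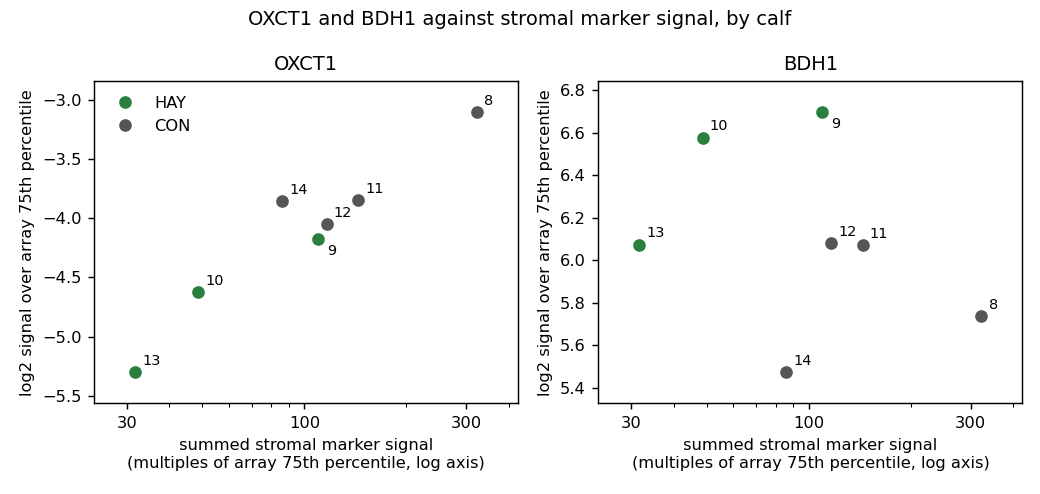
Log2 signal of OXCT1 (left) and BDH1 (right) against the summed signal of 19 smooth muscle and fibroblast markers (horizontal log axis, multiples of the 75th percentile of the array), 1 point per calf, HAY in green and CON in grey. OXCT1 is lowest in HAY calf 13 and highest in CON calf 8, at the ends of the stromal range, while BDH1 is lowest in CON calf 14.

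OXCT1 and ACAT1 varied most over the 7 calves, with SDs of 0.69 and 0.53 on the log2 scale. The genes whose centred log2 values lay nearest to those of OXCT1 over the 7 calves were PFKP, a phosphofructokinase of glycolysis, LIMS2, an adaptor of integrin adhesions, and PMP22, a membrane protein of myelin that other cells also make. Their root-mean-square differences from OXCT1 were 0.14, 0.16 and 0.16. Nearest to ACAT1 were BHLHE41, a transcriptional repressor of the circadian clock, at 0.087, AK7, an adenylate kinase, at 0.15, and SAMD14 at 0.16. These are descriptions of 7 arrays.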

How the data were processed

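Per the file headers, the deposited scanner files hold processed spot intensity on a linear scale, with spatial and multiplicative detrending switched on. Agilent Feature Extraction 9.5 made them, per the submitters' processing notes. The authors' deposited value table is on a log2 scale and followed the log2 processed signal minus the 75th percentile of the array (Pearson r of at least 0.99999984). Outlier spots and control spots were left out, log2 values of repeated spots were averaged, and each array was set relative to its 75th percentile. Probes well above background on at least 3 arrays were kept (12604 of 15008). RefSeq accessions named 11194 probes, the others kept the name in the files, and the brightest probe stood for a gene. HAY and CON were compared with limma 3.58.1 in R 4.3.3 over 12570 genes, with Benjamini-Hochberg adjustment, and p-values measure the spread between these calves. The fit was tested on simulated data.

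Each calf is 1 replicate, and the number of arrays limits the precision. The members and lists were chosen with earlier results of these data known. Named genes were the 7 members, all of a list of up to 4 genes, otherwise the 4 tested members of smallest p, and the 3 genes most alike the 2 members of largest SD, leaving out locus names. Related genes came from 8 lists, 8 of whose 59 genes were not tested; some genes of the pathway are not reported here. Alternatives were normexp (offset 50), median centring, quantile normalization, 2 other filters, the deposited table, outlier spots kept, the mean of probes, the slide column as a block and leaving out each calf. Leaving out calves 8 and 13 together was chosen after seeing the data.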

Additional observations from a re-analysis of the deposited data

Results flagged for a closer look

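Single CON calves stood far from the other CON calves, by Dixon's gap over range, for 3 of 44 genes and ratios examined, where chance gives about 1 in 20. HMGCS1 had a log2 signal of 1.81 in CON calf 14, against 0.36 in the nearest CON calf. BSG had one of 4.95 in CON calf 12, with the nearest at 4.47. FFAR3 had one of -5.88 in CON calf 8, with the nearest at -5.20. The 3 HAY calves are too few for this check.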

How the results depend on the processing

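The counts of calls, the named genes and the within-array ratios were recomputed under 17 other settings; the medians of lists and the marker sums were not. No ketone body gene passed the adjusted threshold under any of the 17, and BDH1, BDH2, ACAT1, OXCT1, ACADS and ECHS1 kept their direction throughout. HADH turned to -0.075 without CON calf 14 and ranged from -0.075 to 0.35 when single calves were left out. The number of ketone body genes at an unadjusted limma p under 0.05 was 2 with quantile normalization, 1 without calves 8 and 13, and 1 to 5 when single calves were left out. The number of all genes past the adjusted threshold was 4 with quantile normalization, 2 when blocked on slide column, 5 without calves 8 and 13, and 1 to 21 when single calves were left out. The number at an unadjusted p under 0.05 was 749 without calves 8 and 13 and 984 to 2344 when single calves were left out. Of the 1755 genes in the report 854 were higher and 901 lower in HAY, while median centring gave 1240 and 774, quantile normalization 1054 and 841, normexp 707 and 953, and blocking on slide column 665 and 1145.

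Among the related genes, leaving out single calves gave -0.36 to 0.25 for ACAT2, -0.22 to 0.35 for HMGCS1, -0.044 to 0.37 for ACSF2, -0.045 to 0.20 for SUCLG2, -0.0013 to 0.28 for INSR and -0.020 to 0.12 for FFAR2. HMGCS1 was 0.017 with median centring, ACSF2 -0.18 without calves 8 and 13, and SUCLG2 -0.0035 with quantile normalization. FFAR2 was -0.058 with normexp, -0.020 when blocked on slide column and -0.088 without calves 8 and 13. Over all settings 33 to 42 of the 51 related genes had higher means in HAY. The log2 difference of BDH1 over OXCT1 ranged from 1.25 to 1.79, that of BDH1 over HADH from 0.38 to 0.56, and that of OXCT1 from -1.25 to -0.48. The cause of these shifts was not tested. No paired analysis was possible because the calf numbers are not shared between the groups; the block on slide column compares arrays of the same column, which is a position and not a pairing of animals, and CON calf 8 has no HAY array in its column.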
